A study of Homo sapiens with 9 samples.

Results

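The urea cycle and the neighbouring steps of arginine metabolism were followed through 10 listed genes, CPS1, NAGS, OTC, ASS1, ASL, ARG1, ARG2, OAT, GLS2 and GLUL, in Huh7 cells. Huh7 is a human hepatocarcinoma cell line. The members were the probe sets that the array's annotation table assigns to one of these symbols and to no other gene. These came to 17 probe sets of 9 genes, out of 54613 probe sets and 19775 genes on the array, and GLS2 was not analysed here. The list was drawn up because ARG1 was much lower after DEGS1 siRNA. Values of all members in DEGS1 against scramble are therefore a description with no test, as is ARG1 in DEGS1 against SPTLC123.

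RNA was measured on 9 one-colour Affymetrix arrays: 3 of cells given DEGS1 siRNA, 3 of cells given SPTLC123 siRNA and 3 of cells given scramble siRNA. DEGS1 encodes dihydroceramide desaturase, and SPTLC123 stands for siRNA against the subunits of serine palmitoyltransferase, which opens ceramide synthesis. All 9 cultures were the same line in high-glucose medium with added L-glutamine, and all received siRNA at 20 nM in a lipid carrier. A time of 72 h after transfection is given in the labels, but the treatment text has the medium changed for a low-serum conditioned one at 72 h and the cells harvested 24 h later. The replicates are called biological, with no statement that they came from separate transfections, so p-values measure the spread between these arrays. A single line and scramble sequence limit the model, and the number of arrays limits the precision. Values below are log2 of the deposited normalized intensity, given for replicates 1, 2 and 3 in turn. Probe sets of one gene are told apart by their mean over the arrays, from the brightest down, and the median over all probe sets and arrays was 4.86.

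The targeted genes followed their labels on their brightest probe sets. There DEGS1 was at -3.73 in DEGS1 against scramble, and SPTLC1 and SPTLC2 were at -2.27 and -1.05 in SPTLC123 against scramble, as log2 changes. The dimmer SPTLC2 probe sets were at -1.33, -1.02, -0.24 and 0.06 in SPTLC123 against scramble, and only that at -1.02 was called. In DEGS1 against scramble the SPTLC1 probe sets were at -0.23, -0.82 and -0.52, and only that at -0.52 was called. The remaining subunit was not analysed here. Of 12 hepatocyte markers, 11 were measured, and all 11 lay above the median level. Their summed linear intensity was 99564.7 to 108544.6 in DEGS1 cells, 89252 to 96432.9 in SPTLC123 cells and 112072 to 119578.9 in scramble cells, so the sum was lower in both knockdowns without overlap. Of 18 markers of other cell types, 16 were measured, 9 of them above the median, with sums of 884.5 to 1022, 980 to 1115.9 and 1037.7 to 1076.3 in the same groups. Actin control probe sets at the 3' end exceeded those at the 5' end by 1.15 to 1.31 on 3 arrays (DEGS1 replicates 2 and 3 and SPTLC123 replicate 3) and by 0.40 to 0.56 on the other 6. These 3 arrays had weak 5' signal, a sign of RNA or labelling quality, and no scramble array was among them. Scramble replicate 2 also stood apart, being the highest of the 9 arrays for 5 of the 9 measured members.

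The urea cycle turns ammonia into urea in the liver. Its opening steps take place in mitochondria, where CPS1 makes carbamoyl phosphate, with NAGS supplying its activator N-acetylglutamate, and OTC joins carbamoyl phosphate to ornithine to give citrulline. In the cytosol ASS1 and ASL turn citrulline into arginine, and ARG1 splits arginine into urea and ornithine. ARG2 is a mitochondrial arginase, OAT links ornithine to proline and glutamate, and GLUL, glutamine synthetase, takes up the ammonia that escapes the cycle in the pericentral hepatocytes of the liver lobule.

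After DEGS1 siRNA, ARG1 was lower by 3.27 ± 0.50 (SE) and the brightest GLUL probe set was higher by 0.53 ± 0.10. These were the 2 of 17 probe sets called at an adjusted p under 0.05, beside 3.42% of all probe sets called in that comparison. Since the list was chosen on this comparison, nothing is read from the count. After SPTLC123 siRNA, 1 of the 17 probe sets was called, the same GLUL probe set, which rose by 0.55 ± 0.10 (adjusted p = 0.0160), beside 4.52% of all probe sets. With 1 of 17, the share of members called was near the background. Between DEGS1 and SPTLC123 cells the call was ARG1 alone, 1 of 17, beside 3.69%. ARG1 in that comparison is a description with no test, so nothing is read from this count either. The comparisons against scramble share the 3 scramble arrays, so their values stand side by side and are not independent.

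**Figure D1:**
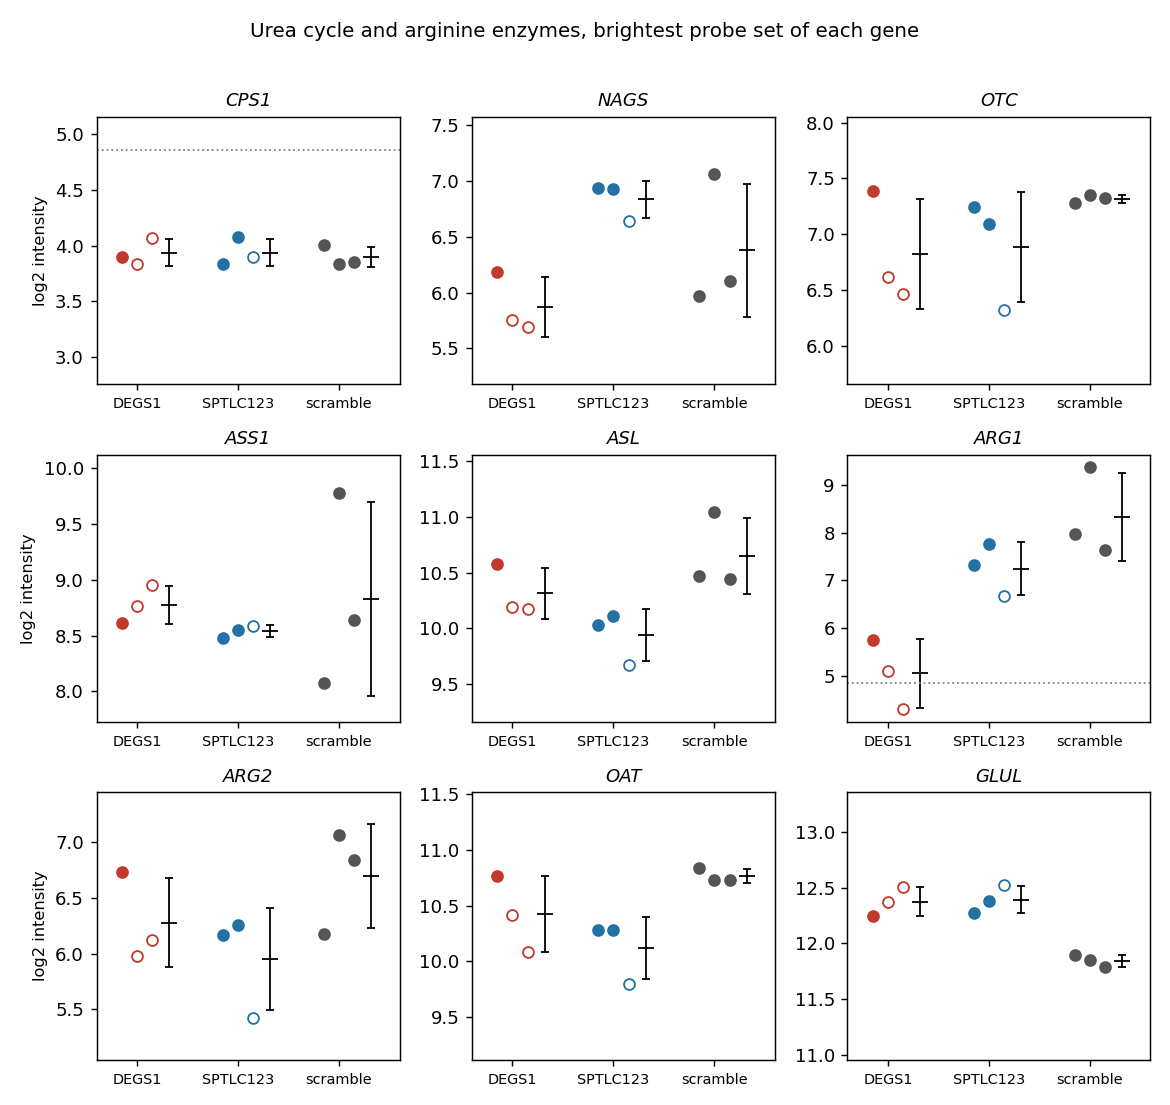
Log2 intensity of the brightest probe set of each of the 9 measured members, one panel per gene, by siRNA group on the x axis. Points are arrays in replicate order, open points are the 3 arrays with weak 5' signal, bars are mean ± SD (n = 3), each y axis has its own range, and the dotted line marks the median of all probe sets (4.86) where it falls in the panel. ARG1 is lowest on the DEGS1 arrays, GLUL is higher on all 6 knockdown arrays than on any scramble array, and CPS1 lies below the median everywhere.

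ARG1 was measured by its brightest probe set at 5.75, 5.10 and 4.30 on the DEGS1 arrays, 7.31, 7.76 and 6.67 on the SPTLC123 arrays, and 7.97, 9.37 and 7.64 on the scramble arrays. Every DEGS1 array lay below every other array, whereas SPTLC123 and scramble arrays overlapped. The mean was 5.05 ± 0.73 in DEGS1 cells, 7.25 ± 0.55 in SPTLC123 cells and 8.32 ± 0.92 in scramble cells (SD, n = 3 each), so DEGS1 cells kept 10.3% of the scramble signal. Fewer cells expressing a gene and less RNA per cell cannot be told apart in such bulk samples. The DEGS1 mean sat close to the array median of 4.86, where array signal flattens and a fold change is compressed. In SPTLC123 cells ARG1 differed from scramble by -1.08 ± 0.50 (95% interval -2.20 to 0.04, adjusted p = 0.332), which did not pass the threshold, and by -0.56 without scramble replicate 2. Against SPTLC123 cells, DEGS1 cells differed by -2.19 ± 0.50 and kept 21.8% of the signal.

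The ARG1 difference kept its sign and was smaller in fits that set aside the arrays named above. With the actin 3' minus 5' value as a covariate, DEGS1 against scramble was -2.76, and without the 3 arrays of weak 5' signal it was -2.58. In that last fit DEGS1 replicate 1 stands alone and the difference was not called (the fit gives that lone array the spread of the remaining groups). Leaving out each array in turn gave -3.62 to -2.75, the smallest without scramble replicate 2. DEGS1 against SPTLC123 ranged from -2.54 to -1.82 in the same way. The other 3 ARG1 probe sets lay between 2.72 and 3.90 on every array, under the array median. From the brightest of these down, their DEGS1 minus scramble differences were -0.12 ± 0.08, -0.15 ± 0.17 and 0.27 ± 0.08, and none was called, so the ARG1 description rests on a single probe set. With the 4 probe sets averaged, ARG1 was at -0.82 in DEGS1 against scramble and -0.33 in SPTLC123 against scramble.

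The ARG1 upstream sequence is shown because ARG1 is the member that stands apart. Those of ARG2, the other arginase, and GLUL, the member called in SPTLC123 cells, are shown with it. Each line gives the 250 bases before the start of the gene in RefSeq (GRCh38.p14), 5′ to 3′ on the gene's strand, with capitals marking matches on either strand to 4 motifs spelled out after the sequences, none of which overlap. ARG1 lies at chr6:131572976-131573225 (+), ARG2 at chr14:67619670-67619919 (+) and GLUL at chr1:182391791-182392040 (-).
ARG1: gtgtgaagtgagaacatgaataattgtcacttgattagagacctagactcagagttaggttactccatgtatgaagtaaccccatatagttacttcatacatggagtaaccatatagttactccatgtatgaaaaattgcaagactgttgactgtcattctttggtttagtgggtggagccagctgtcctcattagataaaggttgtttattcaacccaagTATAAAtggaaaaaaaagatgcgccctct
ARG2: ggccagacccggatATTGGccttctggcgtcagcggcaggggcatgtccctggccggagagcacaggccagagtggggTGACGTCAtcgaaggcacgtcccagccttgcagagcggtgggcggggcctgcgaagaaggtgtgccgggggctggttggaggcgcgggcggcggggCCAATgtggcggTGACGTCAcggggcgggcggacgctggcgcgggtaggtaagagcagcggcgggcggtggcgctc
GLUL: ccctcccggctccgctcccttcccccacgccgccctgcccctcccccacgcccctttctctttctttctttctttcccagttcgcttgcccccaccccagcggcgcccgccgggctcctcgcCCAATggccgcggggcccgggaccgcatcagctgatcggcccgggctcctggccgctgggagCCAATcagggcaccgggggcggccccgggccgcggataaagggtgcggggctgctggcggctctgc
The ARG1 window holds TATAAA starting 29 bases before the start site. Among the 10 listed genes OTC holds it too, and it is found in 11.2% of 27305 promoter windows of this length. ARG2 holds TGACGTCA, the palindrome known as a cyclic AMP response element, at 172 and 64 bases before the start, and 1.75% of windows hold it at least once. CCAAT occurs in the windows of ARG2, ASL, GLUL and OAT and in 33.0% of all windows. The fourth motif searched, TGATGNAA, is part of the amino acid response element and is in 3.19% of windows and in 0 of the 10 listed genes. These are matches of letters and were not tested for binding.

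The mitochondrial entry of the cycle gave no limma call in any comparison. Of its 4 probe sets, 0 had an unadjusted p under 0.05 in SPTLC123 against scramble and 2 in DEGS1 against SPTLC123. CPS1 was near background: its brightest probe set read 3.90, 3.84 and 4.07 on DEGS1 arrays, 3.84, 4.07 and 3.90 on SPTLC123 arrays, and 4.0045, 3.84 and 3.86 on scramble arrays. All 9 values were under the array median and the groups overlapped throughout. In SPTLC123 against scramble the difference was 0.04 ± 0.10 (95% interval -0.19 to 0.27, adjusted p = 0.922). Its other probe set ranged from 2.72 to 3.71. A probe set at this level says little about changes in the transcript.

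NAGS read 6.18, 5.75 and 5.69 on DEGS1 arrays, 6.94, 6.93 and 6.64 on SPTLC123 arrays, and 5.97, 7.07 and 6.10 on scramble arrays. All 3 DEGS1 arrays lay below all 3 SPTLC123 arrays, and the scramble arrays overlapped both. DEGS1 against SPTLC123 was -0.96 ± 0.27 (51.3% of the signal, adjusted p = 0.0950), which did not pass the threshold. With the actin covariate it was -0.84 (adjusted p = 0.0772), also not called, and without the 3 weak arrays it was -0.75. The difference was called when 1 probe set per gene was tested (adjusted p = 0.0351) and in 2 of 9 fits that left out an array. Against scramble the differences were -0.51 ± 0.27 in DEGS1 cells and 0.46 ± 0.27 in SPTLC123 cells (adjusted p = 0.472 for SPTLC123). Without scramble replicate 2 they were -0.16 in DEGS1 cells and 0.80 in SPTLC123 cells (adjusted p = 0.0533 for SPTLC123).

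OTC read 7.38, 6.62 and 6.46 on DEGS1 arrays, 7.24, 7.09 and 6.32 on SPTLC123 arrays, and 7.28, 7.35 and 7.32 on scramble arrays. The 3 low values were the 3 arrays with weak 5' signal. In DEGS1 cells the difference from scramble of -0.50 ± 0.28 became 0.01 with the actin covariate and 0.07 without those arrays. In SPTLC123 cells the difference was -0.43 ± 0.28 (adjusted p = 0.524), and -0.22 with the covariate.

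Of the cytosolic steps before arginase, neither ASS1 nor ASL was called over all probe sets, and ASL lay below scramble without overlap in SPTLC123 cells. ASS1 read 8.61, 8.77 and 8.95 on DEGS1 arrays, 8.48, 8.55 and 8.59 on SPTLC123 arrays, and 8.07, 9.78 and 8.64 on scramble arrays. The knockdown arrays lay within the spread of scramble, whose replicates 1 and 2 held the lowest and highest of all 9 values. SPTLC123 against scramble was -0.29 ± 0.35 (adjusted p = 0.784) and turned to 0.18 without scramble replicate 2. DEGS1 against scramble was -0.05 ± 0.35 and 0.42 without that array. ASS1 has many processed pseudogenes in the human genome, so its signal may include other transcripts, and the same holds for GLUL and OAT.

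ASL read 10.58, 10.19 and 10.17 on DEGS1 arrays, 10.03, 10.11 and 9.67 on SPTLC123 arrays, and 10.47, 11.05 and 10.44 on scramble arrays. The SPTLC123 arrays were below both other groups without overlap. SPTLC123 against scramble was -0.71 ± 0.19 (61.1% of the signal, adjusted p = 0.0820). That missed the threshold over all probe sets and passed it when 1 probe set per gene was tested (adjusted p = 0.0308) and with the actin covariate (-0.62, adjusted p = 0.0364). It passed in 0 of 9 fits that left out an array, with adjusted p from 0.0519 to 0.226. DEGS1 cells differed from scramble by -0.34 ± 0.19 and from SPTLC123 cells by 0.38 ± 0.19 (adjusted p = 0.353). The difference from scramble was -0.12 with the actin covariate, -0.07 without the 3 weak arrays and -0.14 without scramble replicate 2.

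**Figure D2:**
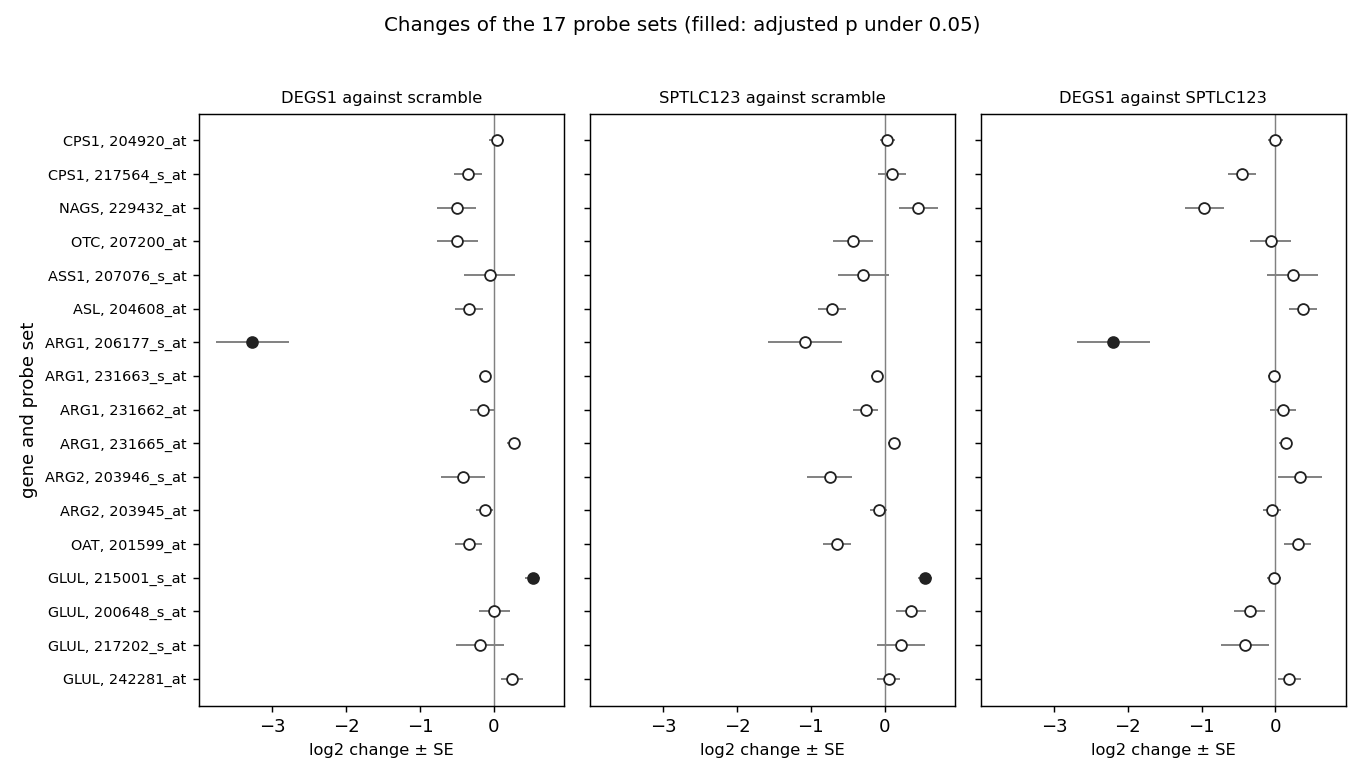
Log2 change ± SE of the limma fit for all 17 probe sets (rows, the brightest of each gene uppermost) in DEGS1 against scramble, SPTLC123 against scramble and DEGS1 against SPTLC123 (panels), with filled points at an adjusted p under 0.05. The brightest ARG1 probe set is at -3.27, -1.08 and -2.19, the brightest GLUL probe set is at 0.53, 0.55 and -0.02, and the other 15 probe sets lie within 1 log2 unit of 0.

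ARG2 and OAT, which draw on arginine and ornithine inside mitochondria, were not called in any comparison over all probe sets. For OAT the arrays read 10.77, 10.42 and 10.09 in DEGS1 cells, 10.28, 10.28 and 9.79 in SPTLC123 cells, and 10.84, 10.73 and 10.73 in scramble cells. Every SPTLC123 array lay below every scramble array. The difference was -0.65 ± 0.18 (63.9% of the signal, adjusted p = 0.0952). With the actin covariate it was -0.52 (adjusted p = 0.0148), and without the 3 weak arrays it was -0.48 (adjusted p = 0.0387), past the threshold in both. Leaving out each array in turn, the SPTLC123 difference passed in 1 of 9 fits, with adjusted p from 0.0386 to 0.242. In DEGS1 cells OAT differed from scramble by -0.34 ± 0.18, and by 0.0015 without the weak arrays. DEGS1 against SPTLC123 was 0.30 ± 0.18 (adjusted p = 0.426) and was called with the covariate at 0.48 (adjusted p = 0.0330). That difference was called in 0 of 9 fits that left out an array.

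ARG2 was read by its brighter probe set at 6.73, 5.97 and 6.13 on DEGS1 arrays, 6.17, 6.26 and 5.43 on SPTLC123 arrays, and 6.18, 7.07 and 6.84 on scramble arrays. The groups overlapped in each comparison. SPTLC123 against scramble was -0.75 ± 0.30 (adjusted p = 0.250), and DEGS1 against scramble was -0.42 ± 0.30, or 0.03 with the actin covariate. The other probe set stayed between 5.58 and 6.06, with differences from scramble of -0.12 ± 0.12 in DEGS1 cells and -0.08 ± 0.12 in SPTLC123 cells. Whether ARG1 and ARG2 differed in their response was not tested.

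GLUL rose in SPTLC123 cells on its brightest probe set. There the arrays read 12.25, 12.37 and 12.50 in DEGS1 cells, 12.27, 12.38 and 12.52 in SPTLC123 cells, and 11.90, 11.85 and 11.79 in scramble cells. Both knockdowns lay above scramble without overlap and overlapped each other. SPTLC123 cells held 146% of the scramble signal (difference 0.55 ± 0.10, adjusted p = 0.0160), and DEGS1 cells 144% (0.53 ± 0.10). Between the knockdowns the difference was -0.02 ± 0.10 (95% interval -0.24 to 0.21, adjusted p = 0.946). The SPTLC123 call was lost without SPTLC123 replicates 2 or 3 or scramble replicates 2 or 3, with adjusted p from 0.0515 to 0.0650 and a difference never below 0.48. The DEGS1 difference ranged from 0.46 to 0.59 in such fits and was 0.41 with the actin covariate. With the 4 GLUL probe sets averaged, GLUL was at 0.15 in DEGS1 cells and 0.30 in SPTLC123 cells, and the SPTLC123 call was lost (adjusted p = 0.234).

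The other bright GLUL probe sets followed the 5' signal of the arrays. For the next brightest the arrays read 11.60, 10.88 and 10.88 in DEGS1 cells, 11.58, 11.69 and 11.14 in SPTLC123 cells, and 11.08, 11.08 and 11.17 in scramble cells. For the third in brightness they read 11.50, 10.36 and 10.33 in DEGS1 cells, 11.31, 11.53 and 10.58 in SPTLC123 cells, and 10.87, 10.85 and 11.03 in scramble cells. On both, the 3 knockdown arrays with good 5' signal lay above all scramble arrays, and the 3 with weak 5' signal lay below or among them. SPTLC123 against scramble was 0.36 ± 0.21 (adjusted p = 0.466) and 0.23 ± 0.33 (adjusted p = 0.832). With the actin covariate it was 0.52 (adjusted p = 0.00345) and 0.49 (adjusted p = 0.00724). Without the weak arrays it was 0.52 (adjusted p = 0.0316) and 0.51 (adjusted p = 0.0571). These probe sets were, in DEGS1 against scramble, at 0.01 ± 0.21 and -0.19 ± 0.33, and at 0.39 and 0.45 with the covariate. The dim probe set ranged from 5.21 to 5.87 and overlapped in every comparison. The part of RNA quality in the spread among these probe sets was not tested beyond those fits.

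**Figure D3:**
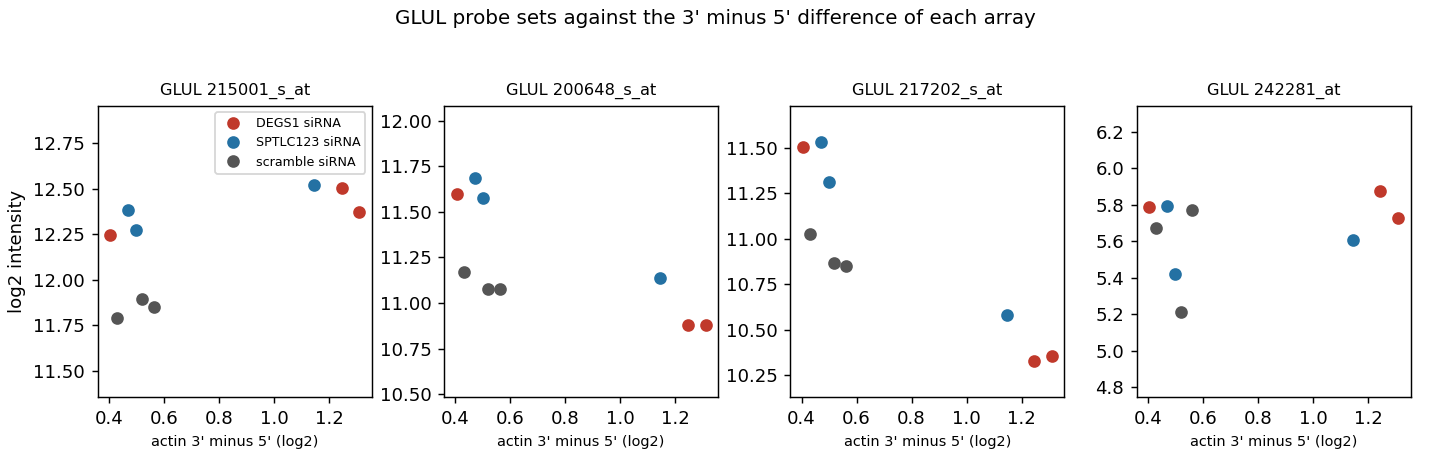
Log2 intensity of the 4 GLUL probe sets (panels, brightest on the left) against the actin 3' minus 5' log2 difference of each array (x axis), with 1 point per array coloured by siRNA group. The 3 arrays at 1.15 to 1.31 on the x axis read below the other knockdown arrays on the middle panels but not on the brightest probe set, and among the arrays at 0.40 to 0.56 the knockdown arrays lie above scramble on these 3 probe sets.

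Over the brightest probe sets of the 9 members, 7 of 9 differences were negative in DEGS1 against scramble, with a median of -0.34, and 6 of 9 were negative in SPTLC123 against scramble, with a median of -0.43. The DEGS1 pattern moved with the weak arrays: without them 4 of 9 were negative with a median of 0.0010, and with the actin covariate the median was -0.04. Without scramble replicate 2 it was -0.16. In SPTLC123 against scramble the medians without the weak arrays and with the covariate were -0.31 and -0.35. Medians over all 19775 genes in the full fit were -0.01 in DEGS1 against scramble and -0.03 in SPTLC123 against scramble. In DEGS1 against SPTLC123 the members' median was 0.0004 and that of all genes 0.01. Counting every probe set, groups did not overlap for 3 of 17 in DEGS1 against scramble, where 21.3% of all probe sets did not overlap, and for 4 of 17 in DEGS1 against SPTLC123, where 19.8% did not. In SPTLC123 against scramble it was 6 of 17 (35.3%), beside 22.4% of all probe sets. Of those 6, OTC, ASL, OAT and the brightest of the 3 dim ARG1 probe sets were lower, and the brightest GLUL and the dimmest ARG1 probe sets were higher.

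Genes around the cycle were taken from 7 lists of carriers, transporters and neighbouring pathways, 60 of 63 measured. In SPTLC123 cells 3 rose and 6 fell, 15% of the 60, beside 6.42% of all genes called. In DEGS1 cells 1 was called higher and 8 lower, beside 5.16% of all genes. Between DEGS1 and SPTLC123 cells 2 were higher and 4 lower, 10% of the 60, beside 5.37%. Without the 3 weak arrays, where DEGS1 replicate 1 stands alone, the calls kept were SLC7A7 and DDAH1 in DEGS1 cells (2 of 9), SLC7A7, ODC1, AGMAT, CKB and SLC38A3 in SPTLC123 cells (5 of 9) and 0 of 6 between the knockdowns. The median change of the 60 was -0.12 in DEGS1 against scramble and -0.07 in SPTLC123 against scramble.

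Arginine transporters held the most calls of the 7 lists in DEGS1 cells. Of 6 measured, SLC7A1, the main cationic amino acid transporter of many cells, was at -1.15 ± 0.17 in DEGS1 against scramble, SLC7A7 and SLC7A6, light chains of the y+L exchangers, at -1.06 ± 0.10 and -0.57 ± 0.11, and SLC3A2, their heavy chain, at -0.73 ± 0.09. All 4 were called lower, beside 2.53% of all genes called lower. SLC7A7 read 7.32, 7.36 and 7.47 on DEGS1 arrays, 7.47, 7.51 and 7.26 on SPTLC123 arrays, and 8.37, 8.39 and 8.59 on scramble arrays. Both knockdowns were below scramble without overlap, and SLC7A7 was the transporter that fell in SPTLC123 cells (-1.03 ± 0.10, adjusted p = 0.00103). This call held in all 9 fits that left out an array.

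SLC3A2 read 9.24, 9.11 and 9.12 on DEGS1 arrays, 9.86, 9.74 and 9.85 on SPTLC123 arrays, and 9.79, 9.91 and 9.95 on scramble arrays. It was lower in DEGS1 than in SPTLC123 cells (-0.66 ± 0.09, adjusted p = 0.00414), a call kept in all 9 of those fits. SLC7A1 read 8.21, 8.15 and 8.24 on DEGS1 arrays, 8.78, 8.72 and 9.29 on SPTLC123 arrays, and 9.09, 9.64 and 9.32 on scramble arrays. The DEGS1 arrays were below both other groups, and the difference from SPTLC123 was -0.73 ± 0.17 (adjusted p = 0.0578), not called. Its DEGS1 against scramble call was lost without DEGS1 replicates 2 or 3. The call of SLC7A6 was lost without DEGS1 replicates 2 or 3 or scramble replicates 1 or 3. Without the 3 weak arrays SLC7A7 alone of the 4 remained called in DEGS1 cells. SLC7A2, the transporter with high expression in liver, and SLC38A9, the lysosomal arginine sensor, were not called in any comparison (-0.20 and -0.10 in DEGS1 cells, -0.27 and 0.11 in SPTLC123 cells).

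Among 8 carriers and cofactor enzymes of the cycle, 1 was called lower in SPTLC123 cells, beside 2.95% of all genes. This was CA5A, the mitochondrial carbonic anhydrase that supplies bicarbonate to CPS1 (-0.65 ± 0.14, adjusted p = 0.0341). It read 5.87, 5.85 and 5.82 on DEGS1 arrays, 5.72, 5.86 and 5.43 on SPTLC123 arrays, and 6.33, 6.54 and 6.08 on scramble arrays. The call held in 3 of 9 fits that left out an array and ended without the weak arrays. SLC25A15, the ornithine carrier of mitochondria, and SLC25A13, the aspartate-glutamate carrier citrin, were at -0.13 and 0.11 in SPTLC123 cells and at -0.20 and -0.16 in DEGS1 cells. In DEGS1 cells limma called 0 of the 8, of which 2 had an unadjusted p under 0.05.

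In nitric oxide and methylarginine metabolism, the calls in DEGS1 cells were the dimethylarginine hydrolases DDAH1 and DDAH2, in opposite directions. DDAH1 read 10.24, 10.17 and 10.17 on DEGS1 arrays, 11.08, 11.04 and 11.17 on SPTLC123 arrays, and 11.21, 11.31 and 11.16 on scramble arrays. The DEGS1 arrays were below all others. DDAH1 was at -1.03 ± 0.08 in DEGS1 against scramble and was lower in DEGS1 than in SPTLC123 cells (-0.90 ± 0.08, adjusted p = 0.000772), called in all 9 fits that left out an array. DDAH2 was called higher in DEGS1 cells (0.51 ± 0.09), a call lost without DEGS1 replicates 2 or 3 or scramble replicates 1 or 3. AGXT2, which also clears dimethylarginine, fell in SPTLC123 cells (-0.80 ± 0.18, adjusted p = 0.0434, called in 2 of 9 such fits). The nitric oxide synthases NOS1, NOS2 and NOS3 had scramble means of 4.72, 4.36 and 4.92, near the median of all probe sets, and were not called.

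**Figure D4:**
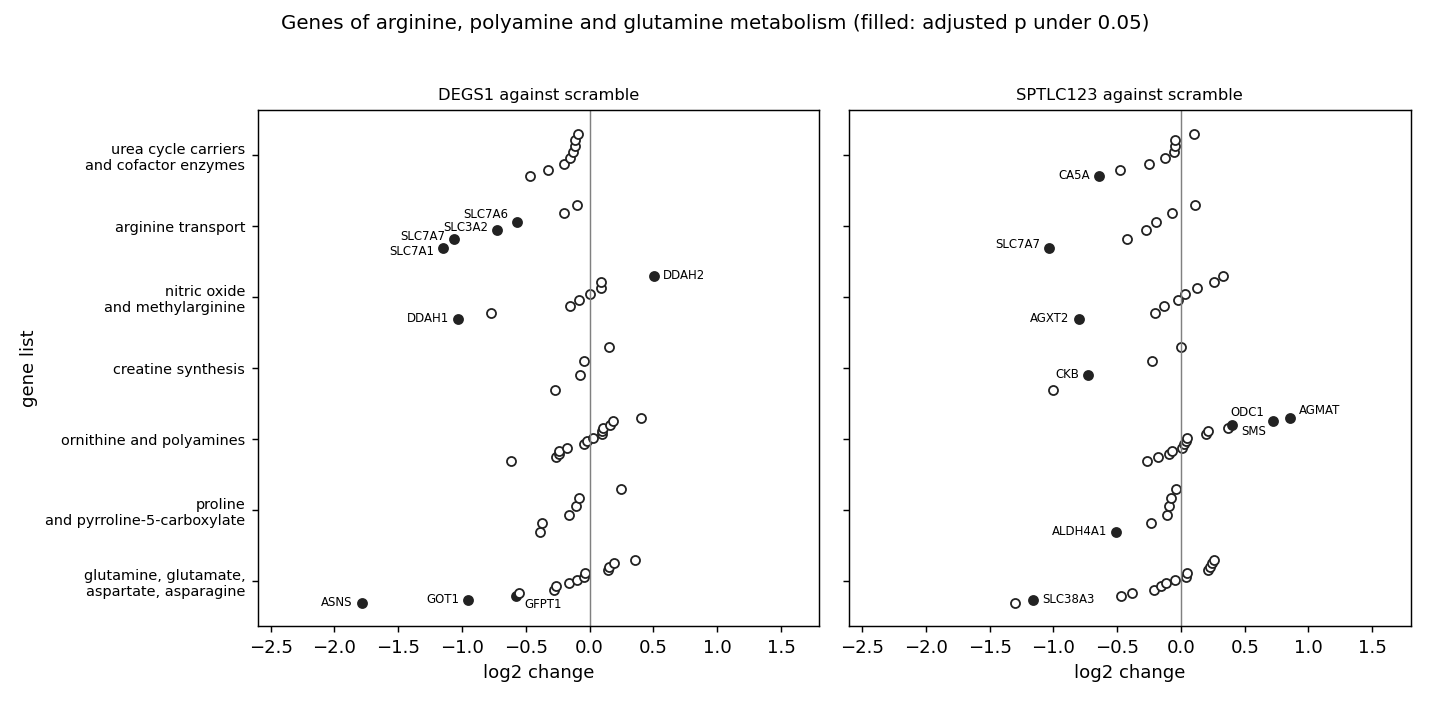
Log2 change (x axis) of the 60 measured genes of 7 lists around the urea cycle (rows) in DEGS1 against scramble and SPTLC123 against scramble (panels), 1 point per gene, filled and named at an adjusted p under 0.05. The arginine transporters hold 4 filled points on the lower side in DEGS1 cells and 1 in SPTLC123 cells, and the polyamine list holds 3 filled points on the higher side in SPTLC123 cells.

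Ornithine leads on to polyamines, and here the calls against scramble lay in SPTLC123 cells, 3 of 14, beside 3.47% of all genes called higher. Of 14 genes, ODC1, ornithine decarboxylase, rose by 0.72 ± 0.11 (adjusted p = 0.00596), AGMAT, agmatinase, by 0.86 ± 0.14 (adjusted p = 0.0105) and SMS, spermine synthase, by 0.40 ± 0.08 (adjusted p = 0.0210). ODC1 read 12.51, 12.31 and 12.35 on DEGS1 arrays, 13.44, 13.32 and 13.30 on SPTLC123 arrays, and 12.62, 12.47 and 12.81 on scramble arrays. The SPTLC123 arrays were above all others, and both the rise and the difference between DEGS1 and SPTLC123 cells (-0.96 ± 0.11, adjusted p = 0.00191) held in all 9 fits that left out an array. The AGMAT call was lost without SPTLC123 replicate 1, and SMS was called in 4 of 9. PAOX, a polyamine oxidase, was higher in DEGS1 than in SPTLC123 cells (0.45 ± 0.09, adjusted p = 0.0353, called in 2 of 9). In DEGS1 against scramble limma called 0 of the 14, of which 4 had an unadjusted p under 0.05.

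In creatine metabolism CKB, the brain-type creatine kinase, fell in SPTLC123 cells (-0.73 ± 0.12, adjusted p = 0.0105) and was higher in DEGS1 than in SPTLC123 cells (0.68 ± 0.12, adjusted p = 0.0175). The fall was lost without SPTLC123 replicate 1, and the difference without DEGS1 replicates 2 or 3 or SPTLC123 replicate 1. In proline metabolism ALDH4A1, which turns pyrroline carboxylate into glutamate, fell in SPTLC123 cells (-0.51 ± 0.11, adjusted p = 0.0368, called in 3 of 9 fits that left out an array). GATM, which takes arginine into creatine synthesis, had a scramble mean of 4.19, below the median of all probe sets.

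Of 14 measured genes of glutamine, glutamate, aspartate and asparagine metabolism, 3 were called lower in DEGS1 cells and 1 fell in SPTLC123 cells. Of all genes, 2.53% were called lower in DEGS1 cells and 2.95% in SPTLC123 cells. ASNS, asparagine synthetase, read 9.69, 9.71 and 9.72 on DEGS1 arrays, 10.10, 10.13 and 10.35 on SPTLC123 arrays, and 10.66, 12.46 and 11.36 on scramble arrays. Both knockdowns were below scramble, whose replicates spread widely. DEGS1 against scramble was -1.79 ± 0.36, called in 4 of 9 fits that left out an array, and SPTLC123 against scramble was -1.30 ± 0.36 (adjusted p = 0.0857). GOT1, the cytosolic aspartate aminotransferase, was at -0.95 ± 0.15 and GFPT1, which draws glutamine into hexosamines, at -0.58 ± 0.12 in DEGS1 cells. The GOT1 call was lost without DEGS1 replicates 2 or 3, GFPT1 was called in 2 of 9, and none of ASNS, GOT1 and GFPT1 was called without the weak arrays. SLC38A3, the glutamine transporter SNAT3, fell in SPTLC123 cells (-1.16 ± 0.18, adjusted p = 0.00712) and held in all 9. GFPT1 was lower in DEGS1 than in SPTLC123 cells (-0.63 ± 0.12, adjusted p = 0.0265, called in 4 of 9).

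Regulators of urea cycle genes gave 1 call among 9 measured of 12 listed, in DEGS1 cells, where 2.63% of all genes were called higher. FOXA1, a liver pioneer factor, was called higher in DEGS1 cells (0.75 ± 0.13), a call lost without DEGS1 replicate 3, any scramble replicate or the weak arrays. CEBPA and CEBPB, factors known to bind urea cycle promoters, were at -0.01 and -0.35 in DEGS1 cells and at -0.08 and -0.58 in SPTLC123 cells with no call. The glucocorticoid receptor NR3C1 was at 0.0008 and -0.13.

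In the liver lobule urea cycle enzymes are periportal and GLUL is pericentral, so genes of both zones were set beside the members. Of 12 pericentral genes, LGR5, RNF43 and SP5, targets or regulators of Wnt signalling, rose in SPTLC123 cells by 1.33 ± 0.20 (adjusted p = 0.00676), 0.77 ± 0.11 (adjusted p = 0.00646) and 0.72 ± 0.13 (adjusted p = 0.0153). These were 3 of 12, beside 3.47% of all genes called higher. The list as a whole did not rise, with a median change of -0.04 over the 12. Others of the list were not called, among them AXIN2, NOTUM and NKD1 at -0.08, -0.15 and -0.01 and ZNRF3 at 0.34. In DEGS1 against scramble limma called 0 of the 12, of which 3 had an unadjusted p under 0.05. LGR5 read 7.30, 7.01 and 7.31 on DEGS1 arrays, 8.09, 7.74 and 8.32 on SPTLC123 arrays, and 6.93, 6.30 and 6.91 on scramble arrays. The 3 groups did not overlap, and LGR5 in DEGS1 against SPTLC123 was -0.84 ± 0.20 (adjusted p = 0.0564), not called. SP5 was lower in DEGS1 than in SPTLC123 cells (-0.67 ± 0.13, adjusted p = 0.0244), a call lost without DEGS1 replicates 2 or 3, SPTLC123 replicates 1 or 3, or the weak arrays. In SPTLC123 against scramble LGR5 and RNF43 held in all 9 fits that left out an array, and SP5 was lost without SPTLC123 replicate 1 or scramble replicate 1.

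Of 7 measured periportal genes, 2 were called lower and 1 higher in SPTLC123 cells, beside 2.95% and 3.47% of all genes. In DEGS1 cells 1 was called lower, beside 2.53%. HAL, the histidine ammonia-lyase that releases ammonia from histidine, fell in SPTLC123 cells (-1.80 ± 0.29, adjusted p = 0.00917) and was at -1.89 ± 0.29 in DEGS1 cells. HAL read 7.59, 6.88 and 6.79 on DEGS1 arrays, 7.12, 7.46 and 6.97 on SPTLC123 arrays, and 8.67, 9.60 and 8.67 on scramble arrays. Both knockdowns were below scramble and overlapped each other. The DEGS1 call was lost without DEGS1 replicates 2 or 3 or the weak arrays. PCK1, a gluconeogenic enzyme, went the other way in SPTLC123 cells (1.00 ± 0.23, adjusted p = 0.0438, called in 2 of 9 and not without the weak arrays). E-cadherin, CDH1, fell there (-0.80 ± 0.12, adjusted p = 0.00708). DEGS1 cells were lower than SPTLC123 cells for PCK1 (-1.20 ± 0.23, adjusted p = 0.0247) and higher for CDH1 (0.66 ± 0.12, adjusted p = 0.0209). Both of these were lost without DEGS1 replicates 2 or 3 or SPTLC123 replicates 1 or 2, or the weak arrays.

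Hepatocyte markers moved in SPTLC123 cells too, where 4 of 11 fell (APOA1, RBP4, TF and TTR, with TTR at -1.03), beside 2.95% of all genes called lower, and the summed marker signal given above was lowest. TTR was called in 6 of 9 fits that left out an array, APOA1 in 4, and RBP4 and TF in 1 each. Without the weak arrays TTR alone of the 4 was called. Of the 16 measured markers of other cell types, 1 was called there, beside 3.47% of all genes called higher. This was the bile duct keratin KRT19, which rose (0.75 ± 0.17, adjusted p = 0.0420, called in 2 of 9). The other bile duct keratin listed, KRT7, was at -0.06 and not called, and the median change of the 16 was -0.10. In DEGS1 against scramble limma called 0 of the 11 hepatocyte markers, of which 6 had an unadjusted p under 0.05. In DEGS1 against SPTLC123, APOA1 and FGB were higher (0.67 ± 0.09, adjusted p = 0.00482, and 0.79 ± 0.16, adjusted p = 0.0304), FGB in 4 of 9 such fits and neither without the weak arrays. The part of this marker shift in the member values was not tested.

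The genes most like ARG1 were sought among 12645 genes above the median level, by Pearson r over the 9 arrays. Since the arrays come from 3 groups that differ in ARG1, group differences set these values, and they are a description. FGL1, a fibrinogen-like protein secreted by hepatocytes, had an r of 0.98, HNMT, histamine methyltransferase, 0.97, CYB5A, cytochrome b5, 0.97, ZDHHC2, a palmitoyltransferase, 0.97 and GOT1, described above, 0.97. FGL1 read 9.92, 9.60 and 9.40 on DEGS1 arrays, 10.47, 10.63 and 10.31 on SPTLC123 arrays, and 10.80, 11.19 and 10.96 on scramble arrays, with no overlap between any groups. It was at -1.34 ± 0.16 in DEGS1 against scramble, and the other 4 were at -0.70 to -1.03, all smaller than ARG1. In SPTLC123 against scramble the 5 were at -0.52 to -0.34.

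**Figure D5:**
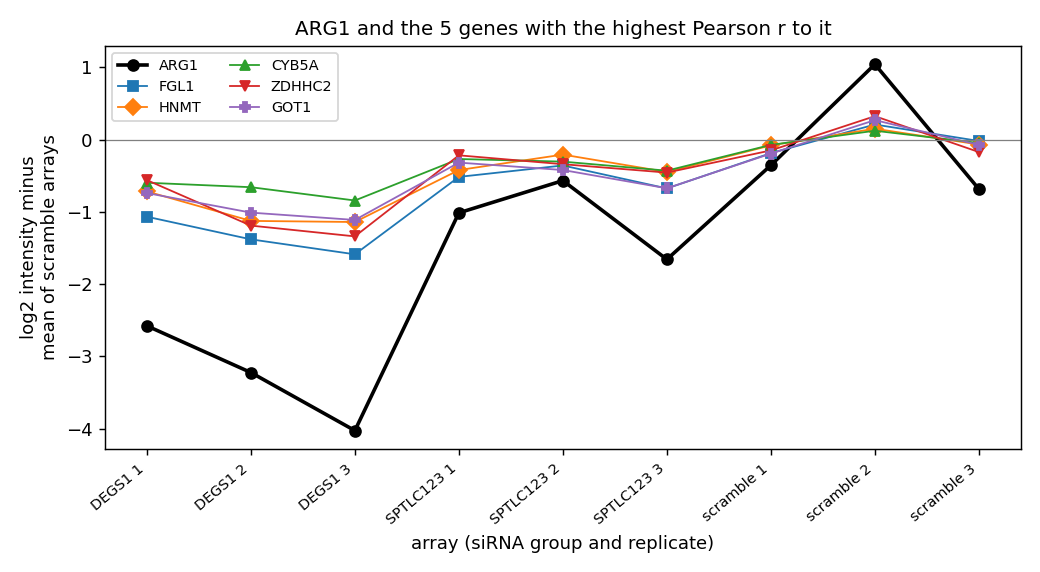
Log2 intensity minus the mean of the scramble arrays (y axis) on each of the 9 arrays (x axis) for ARG1 and the 5 genes of highest Pearson r to it, 1 line per gene. ARG1 reaches about 4 log2 units below its scramble mean on DEGS1 replicate 3, and the 5 others follow the same order of groups over a smaller range.

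Among the members themselves the r to ARG1 was 0.71 for NAGS, 0.64 for OTC, 0.45 for ASL, 0.44 for ARG2, 0.42 for OAT, 0.18 for ASS1, -0.22 for CPS1 and -0.70 for GLUL. NAGS shared with ARG1 its high scramble replicate 2 and low DEGS1 replicates 2 and 3, but NAGS on DEGS1 replicate 1 lay above scramble replicates 1 and 3. OTC shared with ARG1 the low DEGS1 replicates 2 and 3, but DEGS1 replicate 1, also low for ARG1, was the highest OTC array. GLUL was higher on the knockdown arrays, where ARG1 averaged lower.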

How the data were processed

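RNA of 9 Huh7 cultures was hybridised to Affymetrix arrays, 3 each for DEGS1, SPTLC123 and scramble siRNA, grouped by sample title. The authors deposited normalized intensity on a linear scale, 1 value for each probe set on each array. RMA, GCRMA 2.12.1 and limma 2.14.7 were used per the submitters' processing notes, and which of RMA and GCRMA made the values is not given in the sources used here. Array medians were 27.92 to 30.0, so no further normalization was applied. Array data have no read depth, and signal over background limits dim probe sets.

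The deposited intensity was taken to log2 with no pseudocount. A model with a mean for each group (lmFit and eBayes of limma 3.58.1, R 4.3.3) took in all 9 arrays and 54613 probe sets without the 62 controls, leaving 6 residual degrees of freedom. Tests were two-sided, p-values had the Benjamini-Hochberg adjustment across all probe sets, and a call is an adjusted p under 0.05. After ±, a change has the SE of the fit and a level the SD of its 3 arrays. Listed genes were read by their brightest probe set. The annotation gave 1 gene for 41091 probe sets, several for 1801, and did not list 11721. Named genes are all members, the siRNA targets, every listed gene with a call and the 5 genes of highest r to ARG1. Uncalled listed genes that the text also names were chosen after their values were seen. The members and lists were chosen with earlier results of these data known. The fit was tested on simulated data.

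Alternatives were 1 probe set or the mean per gene, a filter on dim probe sets, quantile normalization, median centring, a pseudocount of 16, trend and robust eBayes (statmod 1.5.0), 2-group fits, array weights, a threshold of 0.01, a replicate block, leaving out each array, the actin covariate and leaving out the 3 arrays with weak 5' signal.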

Additional observations from a re-analysis of the deposited data

How the results depend on the processing

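The calls are few and several sit near the threshold, so counts moved with the setting. Members called in SPTLC123 against scramble (1 of 17 probe sets) came to 3 with 1 probe set per gene, 2 with quantile normalization, 5 with the actin covariate, 3 without the 3 weak arrays, 0 at a threshold of 0.01, and 0 to 2 when each array was left out. In DEGS1 against scramble (2) they came to 1 with probe sets averaged per gene, 1 with only the 2 groups compared, 4 with array weights, 1 with the covariate, 0 without the weak arrays, 0 at 0.01, and 1 to 2 with each array left out. In DEGS1 against SPTLC123 (1) they came to 2 with 1 probe set per gene, 0 with the mean, 0 with a pseudocount of 16, 0 with trend and robust eBayes, 4 with array weights, 2 with the covariate, 0 without the weak arrays, 0 at 0.01, and 0 to 3 with each array left out. With probe sets averaged the SPTLC123 against scramble count stayed at 1, but the call was ASL and not GLUL. Genes of the 7 lists called in SPTLC123 against scramble (9) were 3 at 0.01, 5 without the weak arrays and 3 to 9 with each array left out (lowest without SPTLC123 replicate 1). In DEGS1 against scramble (9) they were 5 in the 2-group fit, 15 with array weights, 3 at 0.01, 2 without the weak arrays and 3 to 12 with each array left out (lowest without DEGS1 replicate 2 or 3). In DEGS1 against SPTLC123 (6) they were 11 with 1 probe set per gene, 17 with array weights, 3 at 0.01, 10 with the covariate, 0 without the weak arrays and 3 to 13 with each array left out. Fewer probe sets or arrays in the fit account for part of this by construction, and the cause of the rest was not tested. Since the list was chosen on ARG1 in DEGS1 cells, nothing is read from the member counts of the comparisons with DEGS1 cells.

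Over all probe sets, calls without the weak arrays were 193 in DEGS1 against scramble, beside 1869 in the full fit, 341 beside 2017 in DEGS1 against SPTLC123, and 2228 beside 2466 in SPTLC123 against scramble. None of the called ARG1 and GLUL changes turned sign under the settings run. For members in DEGS1 against scramble, and for ARG1 in DEGS1 against SPTLC123, this is a description, since the list was chosen on ARG1 in DEGS1 cells. Several uncalled differences did. CPS1 turned to -0.16 and -0.22 with its probe sets averaged (DEGS1 against scramble and against SPTLC123). In DEGS1 against SPTLC123 it turned to -0.056 with quantile normalization, -0.058 with median centring and -0.056 without the weak arrays. GLUL in that comparison turned to 0.060 with quantile normalization and 0.056 with array weights, OTC to 0.23 with the covariate and 0.22 without the weak arrays. In DEGS1 against scramble ASS1 turned to 0.11 with array weights. There OTC turned to 0.014 and 0.067, and ARG2 to 0.0275 and 0.038, with the covariate and without the weak arrays, and OAT to 0.0015 without them. On leaving out each array, DEGS1 against SPTLC123 ranged from -0.068 to 0.069 for CPS1, -0.083 to 0.046 for GLUL and -0.35 to 0.12 for OTC. DEGS1 against scramble ranged from -0.030 to 0.0905 for CPS1 and -0.43 to 0.42 for ASS1. SPTLC123 against scramble ranged from -0.032 to 0.090 for CPS1 and -0.67 to 0.18 for ASS1. The cause of these turns was not tested.

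With the replicate number as a block, limma called 2 member probe sets in DEGS1 against scramble, 2 in SPTLC123 against scramble and 1 in DEGS1 against SPTLC123. The addition was OAT in SPTLC123 cells (adjusted p = 0.0434). List genes called with the block were 7 in DEGS1 against scramble, 8 in SPTLC123 against scramble and 4 between the knockdowns. Same-numbered arrays did not all deviate together. Correlations of the deviations from the group means were 0.40, -0.28 and 0.54 between DEGS1 and SPTLC123, and -0.27, -0.09 and 0.03 between DEGS1 and scramble. Between SPTLC123 and scramble they were 0.02, 0.21 and 0.01. Differently numbered arrays ranged from -0.62 (DEGS1 replicate 1 and SPTLC123 replicate 3) to 0.41 (DEGS1 replicate 1 and SPTLC123 replicate 2). With so few arrays per group, these values cannot show whether the numbers pair the samples.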
